A study of Mus musculus with 6 samples.

Results

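The genes described here are the Wnt ligands, their receptors, and the inhibitors, transducers and feedback targets of the beta-catenin branch of the pathway. They were chosen by name: every row whose symbol is Wnt or Fzd followed by a digit, and 30 further pathway genes. The rule found 59 of the 34745 genes in the table, of which 19 encode ligands and 12 encode receptors. Expression was measured by RNA sequencing in 6 libraries of P19, an established mouse embryonal carcinoma line that resembles early embryonic cells and can be driven to several fates. In the labels, 3 libraries are controls with no treatment and 3 come from P19 cells given the peptide PDTLN1, with neither dose nor duration stated. No genetic change is named for either group, and both grew in the same serum-containing medium. Nothing in the labels says that libraries of a group were separate cultures, so the p-values cover the spread among these 6 libraries, possibly only technical spread.

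Wnt proteins are lipid-modified secreted signals that bind a Frizzled receptor together with the co-receptor Lrp5 or Lrp6. Without a Wnt signal, a complex built on Axin and Apc, with the kinase Gsk3b, marks beta-catenin for destruction. With a signal, Dishevelled proteins inactivate that complex, and beta-catenin enters the nucleus and acts with TCF/LEF factors on target genes, several of which encode inhibitors of the pathway. In pluripotent cells the pathway is known for supporting self-renewal and for starting primitive streak formation.

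Promoter sequences of the members are shown because TCF/LEF factors bind a short motif through which beta-catenin reaches its targets. In RefSeq promoter windows of build GRCm38.p6, which run from 250 bases before to 50 bases after a start site, the letters CTTTGA and CTTTGT were searched on both strands, overlaps allowed. RefSeq held 50 windows for 40 of the 59 members. A match was present in 12 of those 50 windows (24.0%), against 31.2% of all 32851 windows, so a single match is common. At least 3 matches before the start site were present in 3 of the 50 member windows (6.0%), those of Sp5, Lef1 and Dkk1, against 0.776% of all windows. The Dkk1 stretch overlaps an annotated exon of Dkk1, so it does not lie wholly before the annotated gene, and it is not printed. Sp5 encodes a transcription factor that is a direct Wnt target, and its stretch at chr2:70474690-70474836 on the plus strand lies just before the gene's start. Its 4 matches begin at -221, -212, -204 and -104 from the start site. The Lef1 stretch, at chr3:131156102-131156191 on the plus strand, lies in an intron before an internal start site of the gene. The other Lef1 windows held no match. The capitals mark the matches.
Sp5: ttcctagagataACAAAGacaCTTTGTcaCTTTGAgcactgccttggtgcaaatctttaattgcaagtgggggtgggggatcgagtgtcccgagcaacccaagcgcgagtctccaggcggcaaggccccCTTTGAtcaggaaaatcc
Lef1: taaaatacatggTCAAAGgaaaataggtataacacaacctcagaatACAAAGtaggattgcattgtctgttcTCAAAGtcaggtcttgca
Of the 4 members grouped here as feedback targets, Sp5 among them, the windows of Axin2, Nkd1 and Nkd2 did not hold these letters. A match describes the sequence only.

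The libraries held 10381307 to 11663081 counts, of which the members took 0.269% to 0.279%. Of 7 pluripotency markers, 6 had enough counts to test, Pou5f1 and Lin28a among them, and Dppa5a had 9 counts in all. Of 6 photoreceptor markers, examined because the labels' extraction text names another tissue, Crx and Arr3 had 0 counts in every library, which allows up to 0.256 to 0.290 CPM (counts scaled to a common library size) in a library (3 counts; counting error only). The photoreceptor markers summed to 0.0211 to 0.398 FPKM, against 904 to 996 FPKM for the pluripotency markers. FPKM, the authors' level per transcript length and depth, is used here to compare genes, and CPM to compare libraries. Libraries stood apart in a way that did not follow treatment: 14 genes of the amino acid stress response summed to 543, 724 and 855 FPKM in control libraries 1 to 3 and to 785, 532 and 567 FPKM in PDTLN1 libraries 1 to 3. Thus control 1 was low together with PDTLN1 2 and PDTLN1 3. The same division appeared over all genes: the first principal component, with 35% of the variance, placed these 3 libraries between -23.5 and -11.7 and the other 3 between 14.2 and 19.8. A label exchange between the libraries numbered 1 was not tested, and every fold change printed uses the labels as given.

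P19 cells expressed a narrow set of ligands and a broad set of receptors. At least 1 FPKM in all 6 libraries was reached by 37 of the 59 members, among them 6 of 19 ligands, 11 of 12 receptors, and every Dishevelled, destruction complex and feedback gene. Wnt8a, a ligand of early embryos, was at 26.3 ± 3.14 FPKM in controls and 24.5 ± 1.14 FPKM after PDTLN1 (SD, n = 3 each). Wnt3, a ligand needed for primitive streak formation, was at 22.2 ± 1.27 and 21.4 ± 3.39 FPKM. Together these made up 81.9% ± 0.985 of the summed ligand FPKM in controls and 81.0% ± 1.73 after PDTLN1. Their ranges over the libraries, 23.3 to 29.9 and 18.6 to 25.2 FPKM, overlapped. Within each library Wnt8a was the higher in FPKM, except in PDTLN1 3, where it was at 23.3 and Wnt3 at 25.2 FPKM. This order depends on the lengths used. In CPM, Wnt3 was above Wnt8a in every library, at 68.2 and 45.9 CPM on average in controls.

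**Figure D1:**
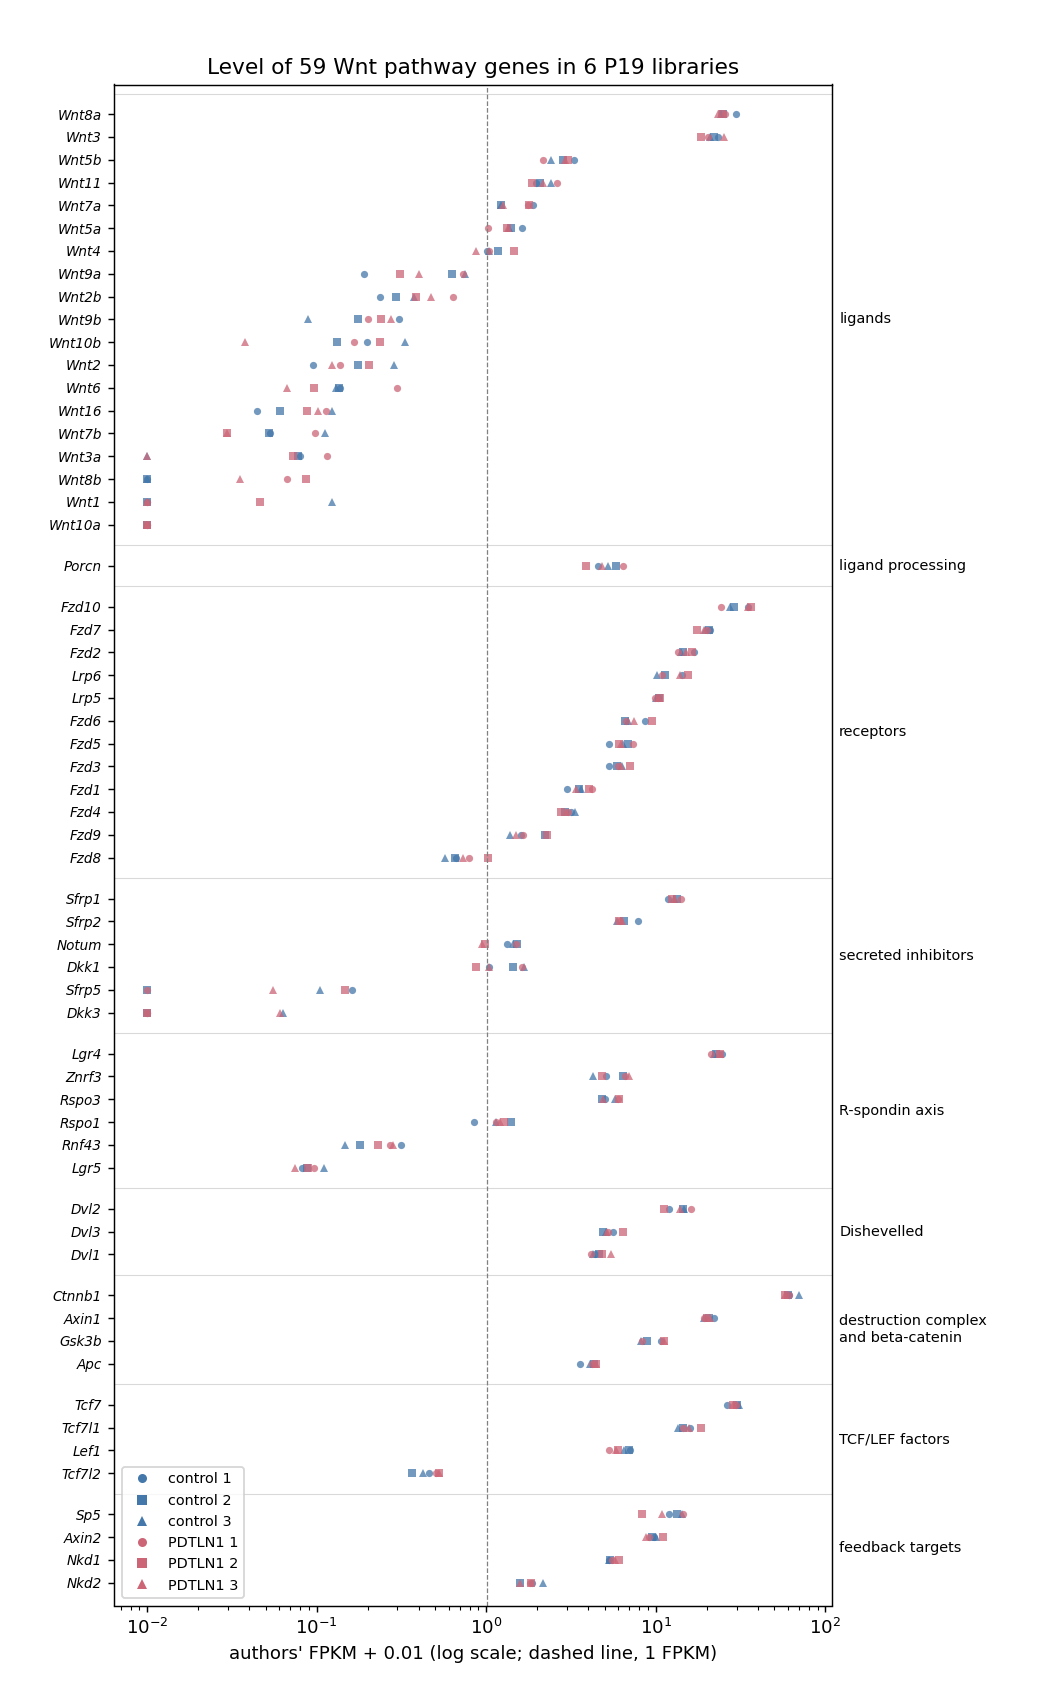
Level of each of the 59 members in every library, as the authors' FPKM plus 0.01 on a log axis, grouped by role; blue marks control and red PDTLN1 libraries, with the symbol giving the library number. Wnt8a and Wnt3 lie near 20 to 30 FPKM, far to the right of the other ligands, and the colours intermix in nearly every row.

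The other ligands followed at a distance. Wnt5b averaged 2.77 FPKM and Wnt11 2.18 FPKM, then Wnt7a 1.52, Wnt5a 1.34 and Wnt4 1.09 FPKM; each of these neighbours overlapped the next in range. The order depends on the lengths used: in CPM, Wnt5a was above Wnt7a, at 18.2 and 5.41 CPM on average in controls. Wnt5a, Wnt5b and Wnt11 are known mainly for signalling that does not use beta-catenin. Wnt9a, Wnt2b and Wnt9b averaged 0.492, 0.390 and 0.205 FPKM. The 9 ligands below these had too few counts to test. Wnt1, the founding member of the family, had 4 counts over all libraries, and Wnt3a, the ligand most used to stimulate cells in culture, had 9. Wnt10a had 0 counts in every library. Wnt8b had 0 counts in the 3 control libraries and 2, 3 and 1 counts in PDTLN1 libraries 1 to 3, at or under the floor of 3 counts, so no fold is given.

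Among Frizzled receptors, Fzd10, Fzd7 and Fzd2 led with averages of 31.1, 19.6 and 15.0 FPKM and held 69.9% ± 2.22 of the summed Frizzled FPKM in controls and 68.4% ± 2.43 after PDTLN1 (SD, n = 3 each). Fzd10 ranged from 24.1 to 36.3 FPKM. Fzd7 was at 20.3 ± 0.749 FPKM in controls and 18.9 ± 1.21 FPKM after PDTLN1, and Fzd2 ranged from 13.6 to 16.8 FPKM. These 3 receptors therefore did not overlap in level across libraries. Fzd6, Fzd5 and Fzd3 averaged 7.61, 6.37 and 6.12 FPKM with overlapping ranges, and Fzd8 was the lowest at 0.728 FPKM. The co-receptors Lrp6 and Lrp5 averaged 12.7 and 10.3 FPKM with overlapping ranges, and Lrp6 was the higher within every library. Ctnnb1, the gene of beta-catenin, was the highest member at 61.4 FPKM, with 57.5 to 70.3 FPKM over the libraries, and no other member reached that range. Counts of bulk RNA cannot tell fewer cells of a kind from less RNA per cell.

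Between PDTLN1 and control libraries, no Wnt pathway member passed the test used. Of the 59 members, 48 had enough counts to test, and 0 passed an adjusted p of 0.05 in edgeR's quasi-likelihood test over 13836 genes, where 0.0217% of all genes did; DESeq2 also called 0. The 48 adjusted p-values lay between 0.989 and 0.999. At an unadjusted p under 0.05 there was 1 member, Lef1, or 2.08%, against 3.99% of all genes. The median log2 fold change of the tested members was 0.04, with 28 above 0 and 20 below, and that of all genes was -0.00095. Between -0.25 and 0.25 on the log2 scale lay 41 of the 48 (85.4%), against 83.9% of all genes. The 95% interval lay wholly inside a 2-fold change in either direction for 44 of the 48 and inside a 1.5-fold change for 33. The 4 whose interval reached 2-fold, Wnt9a, Wnt2b, Wnt9b and Rnf43, all had fewer than 4 CPM on average in each group. A missing call does not show that a level stayed the same, and changes within these intervals are not excluded. The width of an interval did not follow counts alone. Lrp6, with 13076 counts over all libraries, had an SE of 0.17, and Fzd4, with 734, an SE of 0.13.

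**Figure D2:**
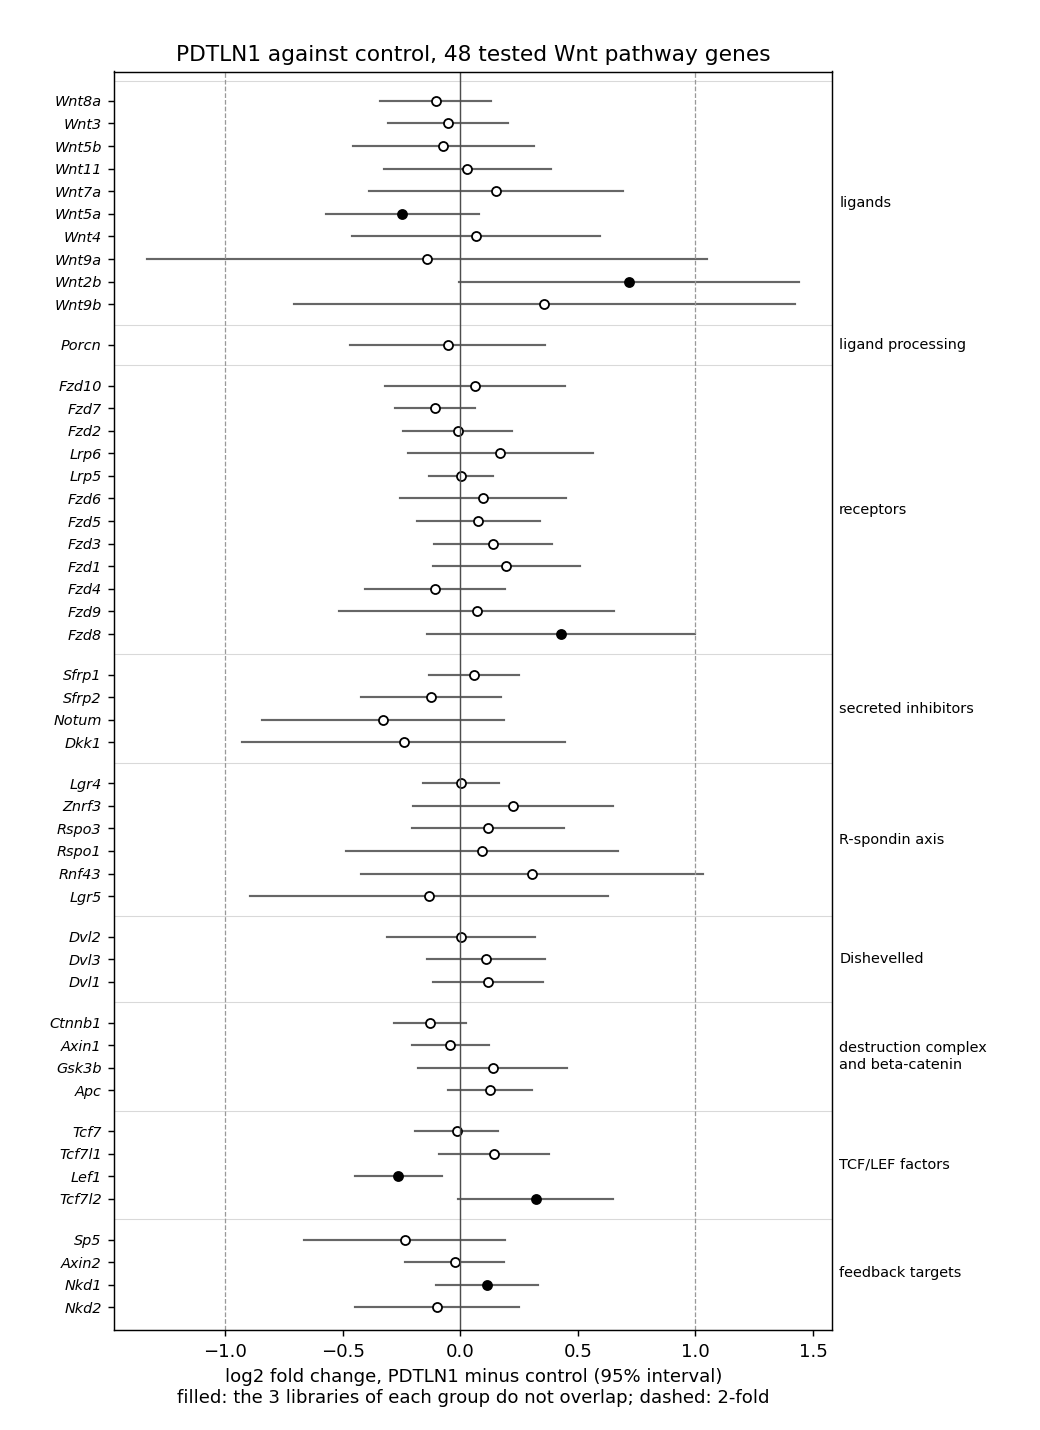
Log2 fold change of the 48 tested members, PDTLN1 minus control, with 95% intervals; filled circles are members whose groups do not overlap and dashed lines mark 2-fold. All intervals but that of Lef1 include 0, and the widest belong to low ligands such as Wnt9a.

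The 3 libraries of one group all lay above or all below those of the other for 6 of the 48 tested members (12.5%), against 9.79% of all genes tested, a share near the background. They were Lef1 and Wnt5a, lower after PDTLN1 (4.98% of all genes), and Wnt2b, Tcf7l2, Fzd8 and Nkd1, higher (4.81% of all genes). None passed the adjustment over all genes. Leaving out 1 library moved the log2 fold change by over 1.5 times or turned its sign for 45 of the 48 tested members, all but Lef1, Tcf7l2 and Wnt2b.

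The TCF/LEF factors held the member with the smallest p. Lef1, an activator that is itself a beta-catenin target (ENSMUSG00000027985, chromosome 3 from 131110471 to 131224356 on the plus strand, GRCm38), was at 65.6, 64.1 and 59.9 CPM in control libraries 1 to 3 and at 49.1, 55.1 and 53.6 CPM in PDTLN1 libraries 1 to 3. Every PDTLN1 library was lower than every control; the nearest were control 3 and PDTLN1 2. The log2 fold change was -0.26 (SE 0.08), with a 95% interval of -0.45 to -0.08, an unadjusted edgeR p of 0.010 and an adjusted p of 0.989, which the alternatives moved between 0.315 and 1.00. Its antisense neighbour Gm43352 overlaps 13.8% of its exon bases, and whether the counting used strand is not given in the sources used here. Of the 7 pluripotency markers, 6 were tested and 0 passed. Below 0 lay 4, and Tdgf1 and Sox2 lay above it at 0.07 and 0.03 on the log2 scale. Without overlap between the groups were 2 (33.3%, against 9.79% of all genes), Pou5f1 and Utf1, both lower after PDTLN1. Utf1 had a log2 fold change of -0.38 (SE 0.09) and an unadjusted edgeR p of 0.00247, smaller than that of Lef1, with an adjusted p of 0.989. The summed level of the 7 markers ranged from 963 to 996 FPKM in controls and from 904 to 957 FPKM after PDTLN1. Most of the difference was Pou5f1, at 545 and 504 FPKM on average, and Utf1, at 60.5 and 46.5 FPKM. The part of these markers in the value of Lef1 was not tested. In all, 14 of the 59 members share exon bases with another annotated gene and their counts are uncertain to that extent, among them Ctnnb1 with Ulk4 (14.6% of its exon bases) and Axin2 with Gm11670 (3.8%).

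Tcf7l2, a factor of the same family, was at 9.97, 7.77 and 9.13 CPM in controls and at 10.9, 11.4 and 11.3 CPM after PDTLN1. The groups did not overlap, and the log2 fold change was 0.32 with a 95% interval of -0.01 to 0.65 and an unadjusted edgeR p of 0.0557. Tcf7, the most abundant of the 4 factors per length at 29.1 FPKM, averaged 98.1 ± 8.47 CPM and 97.1 ± 2.39 CPM (SD, n = 3 each). Its log2 fold change was -0.02 with a 95% interval of -0.19 to 0.16. Tcf7l1, known as the main repressor of the family in these early cell types, was at 81.8, 74.0 and 69.5 CPM in controls and 74.6, 94.1 and 79.7 CPM after PDTLN1. Its groups overlapped, with a log2 fold change of 0.14 and an SE of 0.10. As a group the 4 factors summed to 51.1 ± 1.15 FPKM in controls and 51.4 ± 1.93 FPKM after PDTLN1.

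**Figure D3:**
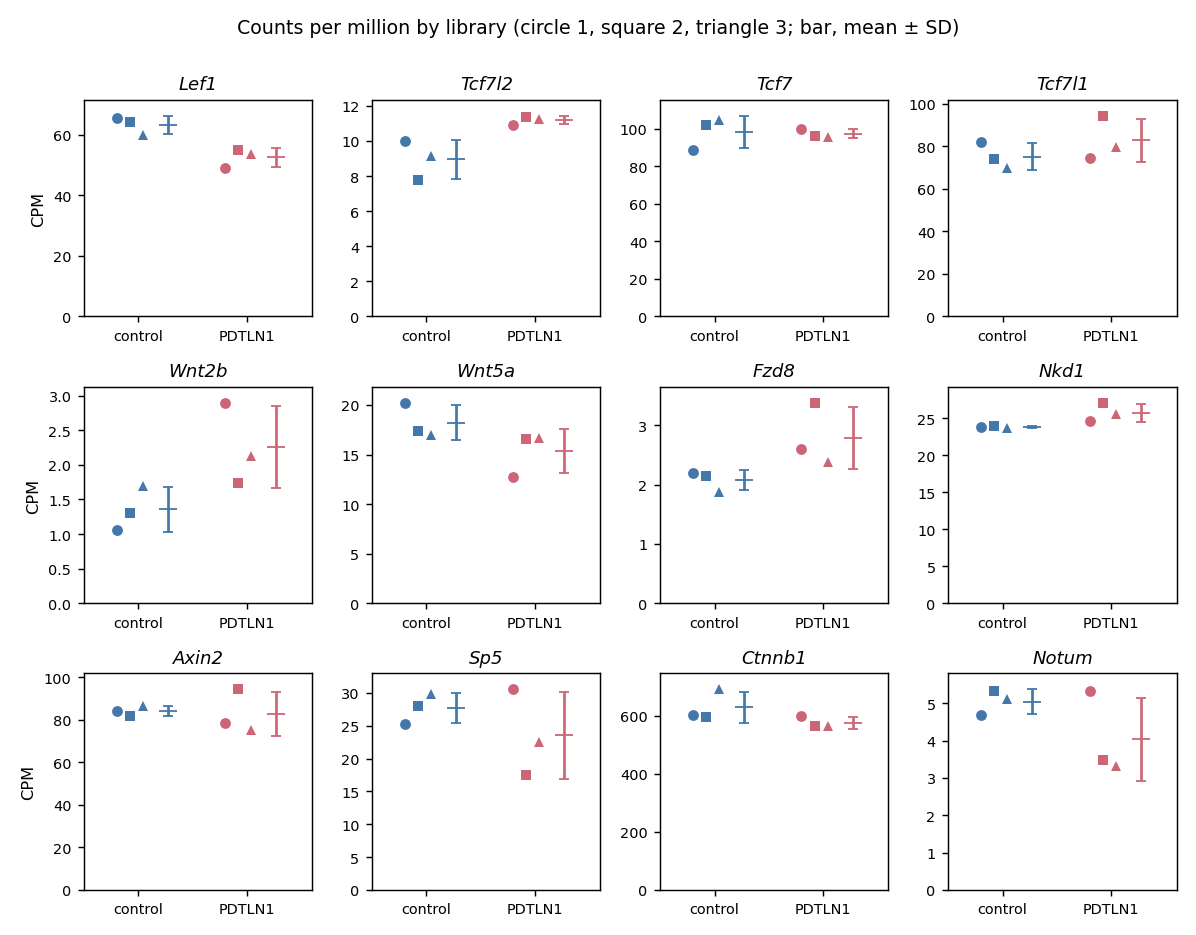
CPM in every library for 12 members, control in blue and PDTLN1 in red, with the mean and SD (n = 3) at the right of each group and the axis starting at 0. Lef1 lies at 59.9 to 65.6 CPM in controls and 49.1 to 55.1 CPM after PDTLN1, while Axin2 overlaps between the groups.

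The 4 members grouped here as feedback targets lay on both sides of 0, with 1 above and 3 below. Transcripts of such targets are the usual readout of beta-catenin activity. Targets placed in other roles, such as Lef1, are not in these counts. Axin2, the scaffold whose transcription follows beta-catenin in most tissues (chromosome 11 from 108920349 to 108950783 on the plus strand, GRCm38), was at 84.0, 81.8 and 86.6 CPM in controls and 78.8, 94.3 and 75.1 CPM after PDTLN1. The PDTLN1 libraries lay on both sides of the controls, and the log2 fold change was -0.02 (SE 0.09), with a 95% interval of -0.24 to 0.19. Sp5, whose promoter stretch is printed above, was at 25.2, 28.0 and 29.8 CPM in controls and 30.5, 17.4 and 22.6 CPM after PDTLN1. Its highest and its lowest library were both PDTLN1 libraries, and the log2 fold change was -0.24 (SE 0.19); without PDTLN1 library 2 it was -0.06 and without PDTLN1 library 1 it was -0.47. Nkd1, a Dishevelled-binding inhibitor, was at 23.8, 24.0 and 23.6 CPM in controls and 24.6, 27.1 and 25.5 CPM after PDTLN1. The controls were tightly grouped and every PDTLN1 library lay above them, with a log2 fold change of 0.11, an SE of 0.10 and an unadjusted edgeR p of 0.263. Nkd2, its relative, had a log2 fold change of -0.10 (SE 0.15).

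Of the destruction complex and its substrate, Ctnnb1 was at 603, 595 and 690 CPM in controls and 600, 563 and 564 CPM after PDTLN1. PDTLN1 library 1 lay among the controls, and the log2 fold change was -0.13 (SE 0.07), with an unadjusted edgeR p of 0.0906; without control library 3 the log2 fold change was -0.06. Apc, the scaffold that holds beta-catenin in the complex, was at 97.0, 117 and 111 CPM in controls and 115, 120 and 119 CPM after PDTLN1, a log2 fold change of 0.13 (SE 0.08). The low value was that of control library 1, without which the log2 fold change was 0.05. Axin1, the constitutive scaffold, was at 106 ± 7.34 and 103 ± 3.46 CPM (SD, n = 3 each), with a log2 fold change of -0.04 and a 95% interval of -0.21 to 0.12. The Dishevelled genes Dvl2, Dvl3 and Dvl1 had log2 fold changes of 0.00, 0.11 and 0.12 (SEs 0.14, 0.11 and 0.10). Dvl2 shares 18.3% of its exon bases with Acadvl on the other strand, so its counts are uncertain.

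Among ligands, Wnt2b was at 1.05, 1.31 and 1.70 CPM in controls and 2.90, 1.74 and 2.13 CPM after PDTLN1, from 11 to 30 counts per library. The nearest libraries of the groups, control 3 and PDTLN1 2, were almost equal. The log2 fold change of 0.72 had a 95% interval of -0.01 to 1.44 and an unadjusted edgeR p of 0.0515, and it was 0.50 without PDTLN1 library 1. Wnt5a was at 20.2, 17.4 and 17.0 CPM in controls and 12.8, 16.6 and 16.6 CPM after PDTLN1, a log2 fold change of -0.25 (SE 0.14). The separation between its groups was narrow, and PDTLN1 library 1 was the lowest. Without it the log2 fold change was -0.13. The leading ligands Wnt8a and Wnt3 had log2 fold changes of -0.11 and -0.05, with 95% intervals of -0.34 to 0.13 and -0.31 to 0.20. Porcn, the enzyme that attaches the lipid to Wnt proteins, had a log2 fold change of -0.05 (SE 0.18).

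Receptor genes had a median log2 fold change of 0.07, with 9 of 12 above 0 and 3 below, none at an unadjusted p under 0.05. Fzd8, at 2.20, 2.15 and 1.88 CPM in controls and 2.61, 3.38 and 2.39 CPM after PDTLN1, did not overlap between the groups but rested on 21 to 39 counts per library. Its log2 fold change was 0.43 (SE 0.25). Fzd7, known as a main Frizzled of pluripotent cells, had a log2 fold change of -0.11 (SE 0.07), from 88.4 to 95.2 CPM in controls and 79.7 to 90.9 CPM after PDTLN1. Lrp5 had a log2 fold change of 0.00 with a 95% interval of -0.13 to 0.14, the narrowest interval among the receptors. Summed over the 10 Frizzled genes, the level was 94.1 ± 5.70 FPKM in controls and 96.0 ± 7.89 FPKM after PDTLN1.

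The R-spondin axis acts on receptor turnover: R-spondins bind Lgr4 or Lgr5 and hold off the ubiquitin ligases Znrf3 and Rnf43, which remove Frizzled from the surface. Lgr4 averaged 23.1 FPKM against 0.0801 FPKM for Lgr5, and its log2 fold change was 0.00 with a 95% interval of -0.16 to 0.16. Znrf3 was at 55.1, 69.8 and 46.4 CPM in controls and 72.2, 52.4 and 75.6 CPM after PDTLN1. Both groups spanned a wide and overlapping range, and the log2 fold change was 0.22 (SE 0.18). Rnf43, at 0.227 FPKM on average, had a log2 fold change of 0.30 (SE 0.32). Of the R-spondins, Rspo3 was at 5.41 FPKM and Rspo1 at 1.16 FPKM on average, with log2 fold changes of 0.12 and 0.09.

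Of the secreted inhibitors, Sfrp1 and Sfrp2, decoys that bind Wnt proteins, averaged 12.9 and 6.47 FPKM, with log2 fold changes of 0.06 and -0.12 and SEs of 0.08 and 0.13. Notum, which removes the lipid from Wnt proteins, was at 4.70, 5.34 and 5.10 CPM in controls and 5.32, 3.47 and 3.33 CPM after PDTLN1. PDTLN1 libraries 2 and 3 were low and PDTLN1 library 1 lay among the controls. The log2 fold change was -0.33 (SE 0.23), and the antisense gene Notumos overlaps 29.4% of its exon bases. Dkk1, which blocks the Lrp co-receptors, was low in every library, at 2.08 to 4.03 CPM. Sfrp5 and Dkk3 had 9 and 4 counts over all libraries and were not tested.

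Several members varied more within the groups than between them. Examples, chosen after their values were seen, are Lrp6 at 222, 177 and 159 CPM in controls and 170, 243 and 216 CPM after PDTLN1, and Gsk3b at 115, 95.7 and 88.8 CPM and 89.5, 121 and 119 CPM. Fzd10 was at 114, 93.6 and 89.4 CPM in controls and at 78.6, 118 and 114 CPM after PDTLN1. In all 3 genes control 1 was high together with PDTLN1 2 and PDTLN1 3, the libraries in which the amino acid stress genes were low as a sum. Sp5, Wnt9a, Porcn and Dkk1 were low in those libraries; Wnt9a was at 1.15, 3.93 and 4.74 CPM in controls and 4.64, 1.91 and 2.47 CPM after PDTLN1. The stress list had all 14 genes tested, 11 of them below 0, 13 at 1 FPKM or more in all 6 libraries, and a summed level of 543 to 855 FPKM in controls and 532 to 785 FPKM after PDTLN1. Not every gene of the list followed the division. Slc7a11 was at 12.7, 13.1 and 11.2 CPM in controls and 15.7, 14.7 and 16.2 CPM after PDTLN1. Its unadjusted edgeR p was 0.0277 and its adjusted p 0.989. It was the 1 listed stress gene without overlap between the groups (7.14%, against 9.79% of all genes). The part of the stress genes in the values of these members was not tested.

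**Figure D4:**
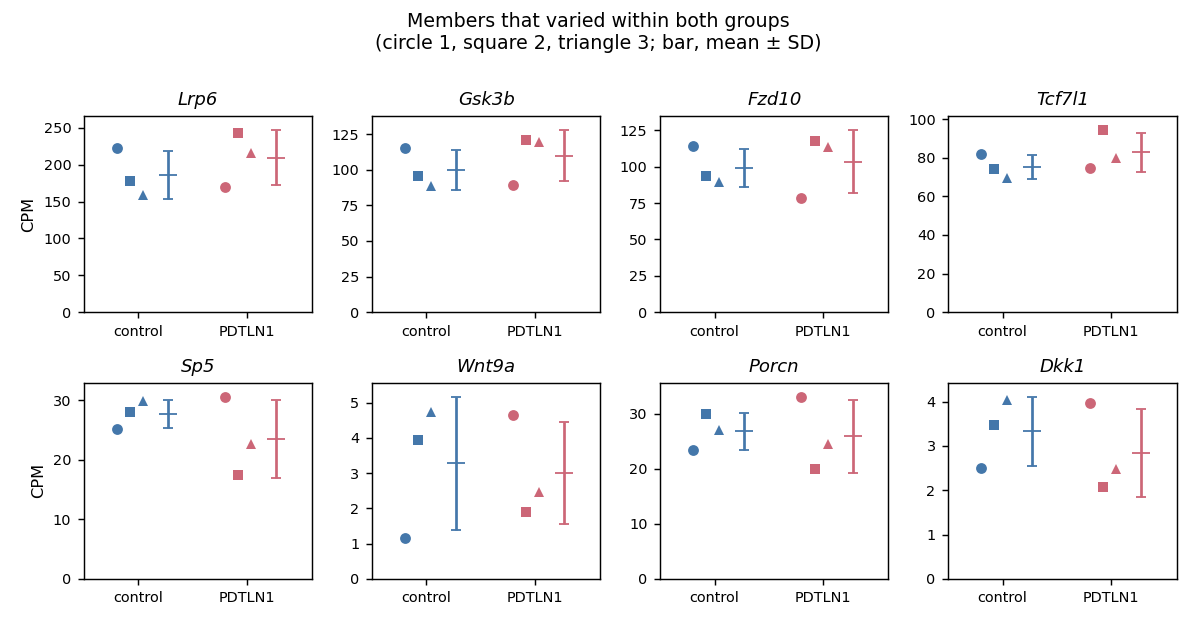
CPM in every library for 8 members chosen after their values were seen, control in blue and PDTLN1 in red, with the mean and SD (n = 3) beside each group. In the upper row control 1, PDTLN1 2 and PDTLN1 3 lie high (Lrp6 at 216 to 243 CPM) and in the lower row the same libraries lie low (Wnt9a at 1.15 to 2.47 CPM).

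With both libraries numbered 1 left out, a comparison added because of that division, 0 of the 48 members passed edgeR's threshold, where 0.652% of 13949 genes did. At an unadjusted p under 0.05 were 12 members (25.0%), against 17.4% of all genes in that comparison and 3.99% with all libraries. The smallest adjusted p was 0.0578, for Lrp6, with a log2 fold change of 0.44 against 0.17 with all libraries. In that comparison 30 of the 48 members (62.5%) did not overlap between the groups, against 50.6% of all genes, and the stress genes differ between its groups too, so treatment and that division cannot be told apart.

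Pathway genes outside the naming rule were read the same way. Of 65 such genes listed, 64 were in the table and 54 could be tested; 0 passed edgeR's threshold, 32 lay above 0 and 22 below, and 3 (5.56%) were at an unadjusted p under 0.05, all higher, a share near the 3.99% of all genes. Gpc4, a glypican that carries Wnt proteins at the cell surface, was at 103, 115 and 109 CPM in controls and 136, 145 and 117 CPM after PDTLN1. Every PDTLN1 library lay above the controls, the log2 fold change was 0.28 (SE 0.09), and the edgeR adjusted p was 0.989. Tnks, a tankyrase that marks Axin for degradation, was at 153, 166 and 164 CPM and at 188, 176 and 180 CPM, again without overlap, a log2 fold change of 0.18 (SE 0.06). Celsr1, a cadherin of planar polarity, had a log2 fold change of 0.28 (SE 0.12). The lower genes with the smallest p were the co-repressor Tle3, the kinase Gsk3a and the Gsk3 inhibitor Frat1, at -0.18, -0.14 and -0.51 (SEs 0.08, 0.08 and 0.38). The median of the 54 was 0.05, and 4 of them (7.41%) did not overlap between the groups, against 9.79% of all genes.

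Of 40 further beta-catenin targets listed, 39 were in the table and 35 could be tested. Of these, 0 passed edgeR's threshold (0.0217% of all genes) and 0 were at an unadjusted p under 0.05 (3.99% of all genes). On the log2 scale 15 lay above 0 and 20 below, with a median of -0.01. Without overlap between the groups were 2 (5.71%), Cdx2 and Cdx1, both lower, against 9.79% of all genes. T, the brachyury gene of the primitive streak, averaged 55.2 FPKM and had a log2 fold change of -0.05 (SE 0.11). Cdx2, a caudal homeobox gene, was at 9.97, 6.09 and 6.0 CPM in controls and 3.48, 5.73 and 5.97 CPM after PDTLN1. The groups did not overlap by a narrow margin, and the log2 fold change of -0.53 was -0.05 in the comparison without both libraries numbered 1. Cdx1 and Klf2 had log2 fold changes of -0.48 each (SEs 0.26). On the higher side, Tfcp2l1, Sp8 and Cd44 had log2 fold changes of 0.28, 0.19 and 0.12 (SEs 0.20, 0.14 and 0.12). The 6 mesoderm markers, of which Mesp1 and Msgn1 had too few counts to test, summed to 56.8 to 76.0 FPKM in controls and 57.0 to 68.7 FPKM after PDTLN1. The 6 primitive endoderm markers summed to 2.62 to 3.30 and 2.81 to 3.24 FPKM, and the 6 neural markers to 28.1 to 38.5 and 20.4 to 35.8 FPKM. The 6 blood and immune markers, of which Cd3e had 0 counts in every library, summed to 6.11 to 8.37 and 5.47 to 8.10 FPKM.

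**Figure D5:**
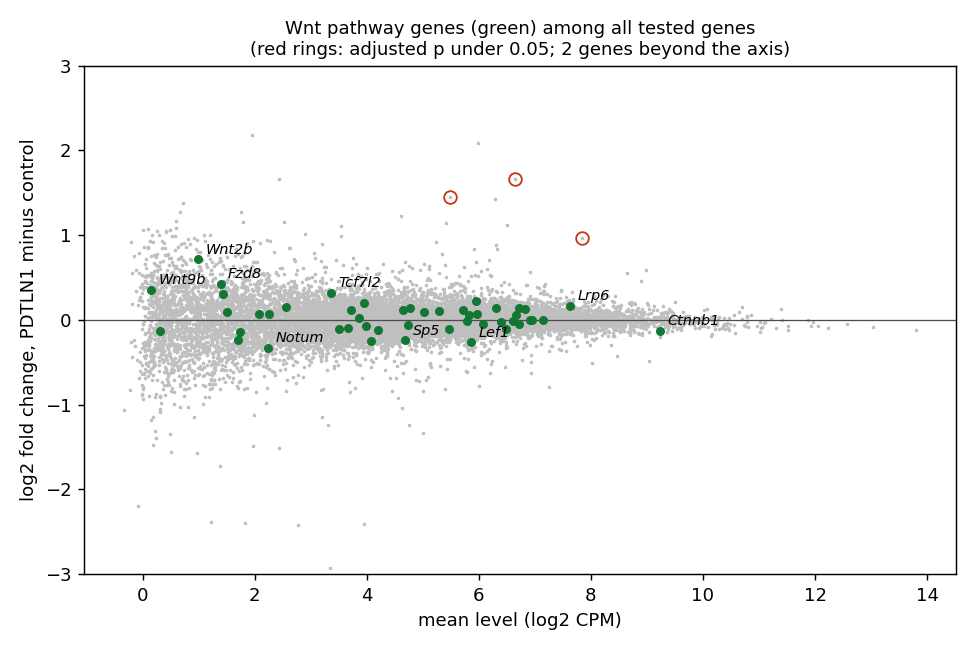
Log2 fold change against mean level for all 13836 tested genes (grey), with the 48 tested members in green and the 3 genes past the threshold ringed in red; 2 genes lie beyond the axis. The members lie within the cloud of all genes, with Wnt2b at 0.72 the farthest from 0.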

How the data were processed

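Libraries came from an Illumina TruSeq kit (the labels' protocols). The authors deposited raw counts per gene and FPKM values, scaled by transcript length and depth, named so in the file headers. Bowtie 0.12.2 and the builds mm8 and mm9 stand in the submitters' processing notes with no role; which counter, strand setting and annotation were used is not given in the sources used here. Positions of 46 of the 59 members equal those in GENCODE vM21 (GRCm38), and coordinates are printed only for such members.

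Counts were tested with edgeR 4.0.16 in R 4.3.3 (filterByExpr, TMM, robust glmQLFit, glmQLFTest), adjusted by Benjamini-Hochberg over all genes tested, threshold 0.05. CPM uses TMM-scaled totals. SE is the log2 fold change over the square root of F; 95% intervals use the test's degrees of freedom. The fit was tested on simulated counts drawn independently for each gene and library. They lacked the division between libraries seen here, so they do not show how the fit behaves under it.

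Members, gene lists and rules were chosen with earlier results of these data known. Named are, per role, the 2 highest members by FPKM, the 2 with the smallest p, all at an unadjusted p under 0.05, and always Ctnnb1, Axin2, Lef1, Sp5 and Tcf7l1; from the further lists, the 3 smallest p per direction. Others named were chosen after their values were seen. Alternatives tried were a replicate block, each library left out, DESeq2 1.42.0, its size factors, library totals, no filter, a stricter filter (1 CPM in 3 libraries, with 10 counts throughout a group) and a threshold of 0.1. Leaving out both libraries numbered 1 was added.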

Additional observations from a re-analysis of the deposited data

How the results depend on the processing

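No Wnt pathway member passed in any of the 14 alternatives, and 25 of the 48 tested members kept the sign of their fold change in all of them; the other 23 changed sign at least once, none past the threshold. Lef1 stayed between -0.30 and -0.19 on the log2 scale, Axin2 between -0.13 and 0.04. The number of genes called over all genes moved from 3 to 1 with the replicate block, 14 with DESeq2, 8 with no filter and 91 without both libraries numbered 1; leaving out 1 library gave 2 to 13, with 13 without control 1, 5 without control 3, 8 without PDTLN1 1 and 6 without PDTLN1 2. The block changed no call among members. Libraries with the same number did not move together (deviations correlated across genes at -0.36, -0.14 and -0.10), so the numbers were not taken as pairs. Members without overlap between groups numbered 8 to 14 with 1 library left out (12 without control 1, 11 without control 2, 14 without PDTLN1 1) and 30 without both numbered 1; fewer libraries separate more often by construction, and the share over all genes rose to 16.5% to 25.9% and to 50.6%. Of the further pathway genes, 1 passed without both libraries numbered 1, Pygo2, where 0.652% of all genes did. Detection at 0.5 or 2 FPKM instead of 1 gave 42 and 32 of the 59 members. Members under about 5 CPM have wide intervals: with 11 to 30 counts per library, that of Wnt2b reached from -0.01 to 1.44.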

Other observations

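Among further pathway genes, Pygo2, which links beta-catenin to chromatin, varied widely between libraries. It was at 63.6, 26.4 and 35.9 CPM in controls and at 50.7, 73.0 and 69.9 CPM after PDTLN1, a log2 fold change of 0.62 (SE 0.35). Its highest libraries were control 1, PDTLN1 2 and PDTLN1 3, those in which the amino acid stress genes were low as a sum. Without both libraries numbered 1 the log2 fold change was 1.19 with an edgeR adjusted p of 0.0153, where 0.652% of all genes passed. In that comparison treatment and the division by stress genes cannot be told apart. The other alternatives for Pygo2 gave 0.436 to 1.00. Wisp1, a secreted beta-catenin target, was at 9.01, 8.71 and 6.62 CPM in controls and at 5.51, 7.89 and 1.11 CPM after PDTLN1, so its log2 fold change of -0.75 rests largely on PDTLN1 library 3. Both genes were chosen after their values were seen.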
